A study of Mus musculus with 16 samples.

Results

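Brush border enzymes and other products of the proximal tubule were followed in the kidneys of mice with and without aquaporin-11, a water channel protein of the endoplasmic reticulum. The set was named by gene: the meprins Mep1a and Mep1b, Ggt1, Dpp4, Dpep1, Miox, Gatm, Napsa, Spp2 and Kap. Its probe sets were those whose annotated symbol is one of these 10 names. They covered 9 of the 10 genes, out of 18193 genes named on the array, with 17 probe sets in all, and Ggt1 is not analysed here.

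Total RNA of whole kidney was measured on Affymetrix mouse arrays, 1 array for each of 16 pups. The pups were 7 days old and labelled C57BL/6J, and came from 5 pairs of Aqp11 heterozygotes whose mutant allele was made on 129/SvEvBrd and then repeatedly crossed to the C57BL/6 background. The wild-type group (Aqp11+/+) held 7 littermates, 3 males and 4 females, and the knockout group (Aqp11-/-) held 9, 5 males and 4 females. The allele was inherited and was not limited to one cell type, so kidneys and all other organs of the knockout pups lacked the gene. In this bulk tissue, fewer proximal tubule cells and less RNA per cell cannot be told apart.

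The brush border is the dense carpet of microvilli on the luminal face of proximal tubule cells. Peptidases anchored there split filtered peptides and glutathione conjugates so that transporters can take up the pieces, and the same cells oxidise inositol, begin creatine synthesis and secrete proteins of their own. Many of these genes are switched on as the tubule matures after birth, and their products are used as signs of a differentiated proximal tubule.

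All 9 measured genes were lower in knockout kidneys. By the brightest probe set of each gene, the falls ran from 1.31-fold for Dpp4 to 2.43-fold for Miox, with a median log2 change of -0.74, against 0.00 over the 12499 genes tested in the same way. Each passed an adjusted p of 0.05 (limma, Benjamini-Hochberg over all 27377 probe sets tested), a mark that 7.3% of all genes passed as lower and 8.44% as higher. By probe set, 15 of the 17 were bright enough to test and 14 of these were lower, where the share over all probe sets was 5.46% lower and 6.21% higher. On 10 of the 15 every knockout array lay under every wild-type array, as it did for 1.69% of all probe sets tested.

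Ranked among all 12499 genes by the size of the fall, Miox stood at place 29, Dpep1 at 85 and Spp2 at 112. Mep1b followed at 173, Kap at 197 and Gatm at 300. The smallest falls were those of Napsa, at 536, Mep1a, at 626, and Dpp4, at 833. These places hold for the brightest probe set of each gene. By other probe sets the log2 change was -0.63 for Dpep1, beside -0.97 by the brightest. For Dpp4 it was -0.30 to -0.57, beside -0.39.

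Promoters are shown for 2 members: Miox, with the deepest fall, and Kap, whose TATA box lies nearest the start. RefSeq windows of the GRCm38.p6 build, from 250 bases before to 50 after the annotated start, were found for 7 of the 9 genes. They were searched on both strands for an HNF1 half-site (GTTAAT), an HNF4 site (CAAAGTCCA), a nuclear receptor half-site (AGGTCA) and a TATA box (TATAAA). No motif overlaps another in the windows below, and capitals mark the matches. Miox, which encodes myo-inositol oxygenase, has the window chr15:89334223-89334522 on the plus strand, and Kap, the kidney androgen regulated protein gene, has chr6:133853618-133853917 on the minus strand.
Miox: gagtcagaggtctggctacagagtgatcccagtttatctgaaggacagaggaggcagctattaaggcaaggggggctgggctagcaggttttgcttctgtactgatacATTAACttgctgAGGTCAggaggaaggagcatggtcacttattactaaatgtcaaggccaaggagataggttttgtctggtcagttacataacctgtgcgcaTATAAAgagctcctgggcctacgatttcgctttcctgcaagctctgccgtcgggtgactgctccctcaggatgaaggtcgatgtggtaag
Kap: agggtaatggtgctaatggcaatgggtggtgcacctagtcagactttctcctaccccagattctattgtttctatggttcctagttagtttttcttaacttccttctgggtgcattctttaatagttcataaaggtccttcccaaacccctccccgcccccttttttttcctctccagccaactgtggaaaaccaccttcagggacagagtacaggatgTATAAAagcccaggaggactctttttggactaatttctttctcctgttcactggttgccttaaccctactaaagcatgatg
In Miox the HNF1 half-site stands on the opposite strand at -142, the receptor half-site at -130 and the TATA box at -40, counted from the start to the first base of the match. Kap holds a TATA box alone, at -31. Over all 32851 windows of this length, 7.1% hold the HNF1 half-site, 16.3% the receptor half-site, 13.6% the TATA box and 0.475% the HNF4 site. Among the 7 windows, the HNF1 half-site was found in 1 (Miox), the receptor half-site in 3 (Gatm, Miox and Spp2), the TATA box in 3 (Dpp4, Kap and Miox) and the HNF4 site in 0. The TATAAA of Dpp4 lies at -227, far upstream of those of Miox and Kap. The receptor half-site lies at -156 in Gatm, on the opposite strand, and at 37, after the start, in Spp2. The windows of Mep1a and Dpep1 held none of these letters. These are matches of letters and not known sites.

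The meprins are zinc metalloproteases of the brush border. Meprin beta, from Mep1b, spans the membrane, and meprin alpha, from Mep1a, is held there by pairing with it or is released into the urine. Mep1b had log2 signals of 9.88 to 10.30 in wild type (median 10.08) and 9.03 to 9.54 in knockout (median 9.28). The groups did not overlap, and the lowest array was knockout 2-3. The mean went from 10.05 ± 0.17 (SD, n = 7) to 9.27 ± 0.17 (SD, n = 9), a log2 change of -0.78 with a standard error of 0.08, or 1.72-fold lower (limma adjusted p = 1.39e-06).

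Mep1a fell too, by a smaller amount. Its brighter probe set, 1450719_at, had log2 signals of 11.71 to 11.93 in wild type (median 11.84) and 10.94 to 11.57 in knockout (median 11.43), again with no overlap. The mean went from 11.83 ± 0.08 (SD, n = 7) to 11.38 ± 0.20 (SD, n = 9), 1.37-fold lower (log2 change -0.45, SE 0.08, limma adjusted p = 0.000332). The other probe set, 1447252_s_at, gave nearly the same value, a log2 change of -0.44 (limma adjusted p = 0.000149), also without overlap. By the brightest probe set of each, the changes of the meprin genes differed by 0.33 on the log2 scale, with Mep1b the lower (exact permutation of genotype labels, two-sided, p = 0.000262, adjusted over 36 pairs of members 0.0014).

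**Figure D1:**
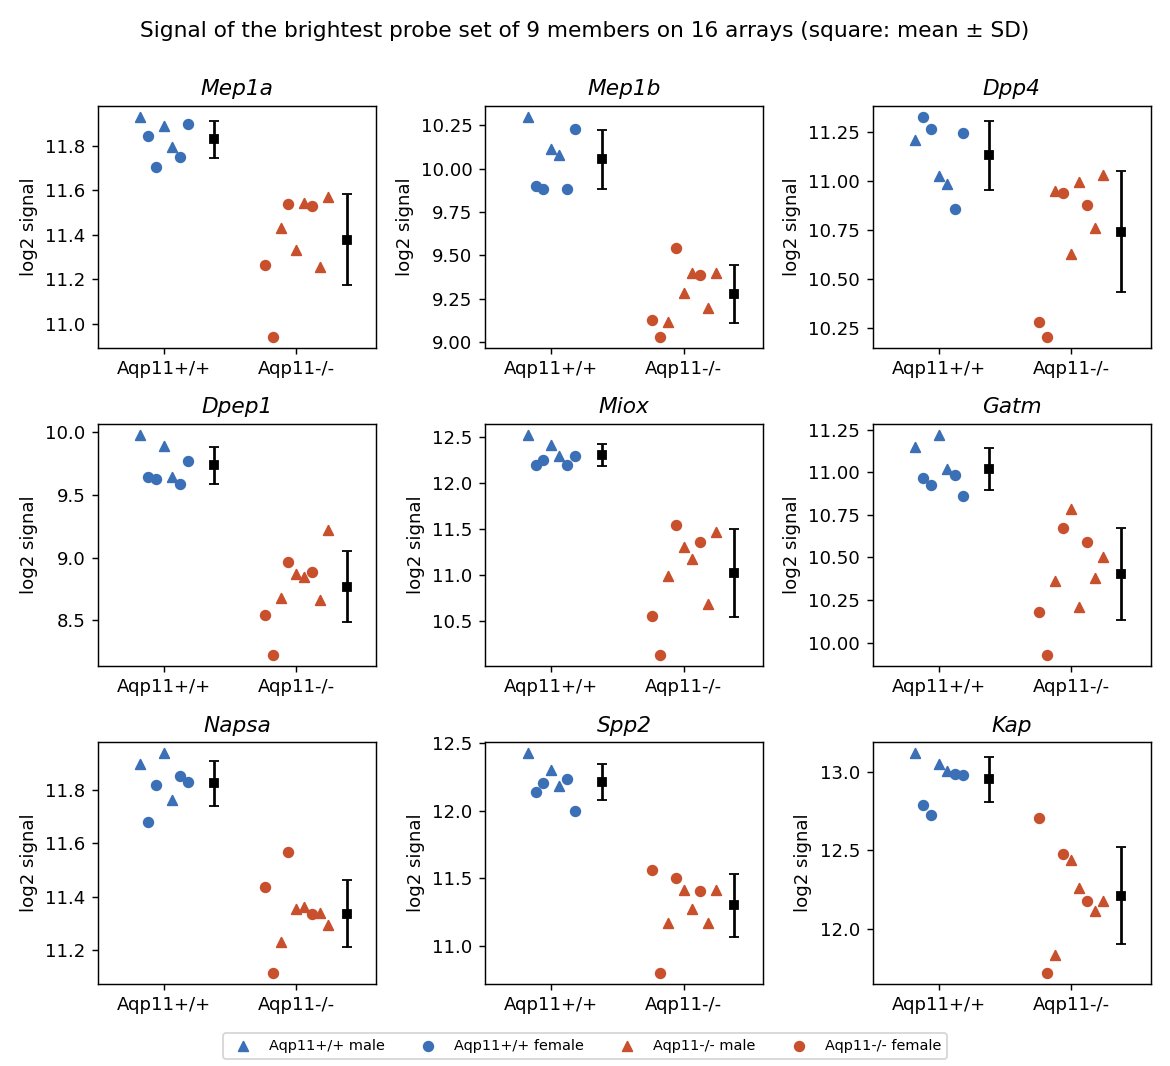
Log2 signal (vertical axis, one scale per panel) of the brightest probe set of each of the 9 genes on 16 arrays, by genotype. Triangles are males, circles females, and squares with bars the mean ± SD over 7 wild-type and 9 knockout arrays. For 8 genes the groups stand clear of each other, and for Dpp4 5 of the 9 knockout arrays lie inside the wild-type range.

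Dpp4 encodes dipeptidyl peptidase 4, a serine protease that cuts dipeptides from the amino end of peptides, and it is also carried by some lymphocytes. The array holds 4 tested probe sets for it. The brightest, 1416697_at, had log2 signals of 10.86 to 11.32 in wild type (median 11.21) and 10.21 to 11.03 in knockout (median 10.88). Only 4 of the 9 knockout arrays lay under the lowest wild-type array, with arrays 2-3 and 1-2 the deepest, at 10.21 and 10.28. The mean fell from 11.13 ± 0.17 (SD, n = 7) to 10.74 ± 0.31 (SD, n = 9), 1.31-fold (log2 change -0.39, SE 0.11, limma adjusted p = 0.0297).

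This call for Dpp4 lay close to the threshold. It was lost without wild-type array 1-1 (limma adjusted p = 0.0609), 2-1 (0.0645), 2-2 (0.0632) or 5-1 (0.0551), with a log2 change of -0.36 to -0.38 each time. It was also lost with median centring in place of quantile normalization (limma adjusted p = 0.0655), with the deposited scaling (0.417), with no filter on dim probe sets (0.0847) and with no variance trend (0.0598). The log2 change was -0.20 in males alone and -0.59 in females alone, and neither passed (limma adjusted p = 0.266 and 0.0983). A test of the difference between the sexes did not pass either (0.39, limma adjusted p = 0.507). The log2 change was -0.69 on the 8 brighter arrays alone (limma adjusted p = 0.0153) and -0.11 on the 8 dimmer ones (0.556), and the difference between these was not tested.

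The other 3 probe sets of Dpp4 had negative changes as well. Probe set 1441342_at, with log2 signals of 8.48 to 9.10 in wild type and 7.98 to 8.45 in knockout, showed no overlap and was 1.48-fold lower (log2 change -0.57, limma adjusted p = 0.000176). Probe set 1438279_at was 1.23-fold lower (-0.30, limma adjusted p = 0.0273), with 6 of 9 knockout arrays under the wild-type range, and its call was lost without wild-type array 1-1 (limma adjusted p = 0.0509), 2-2 (0.0571) or 4-2 (0.0692). Probe set 1459973_x_at, whose suffix marks probes that may match other transcripts, had a log2 change of -0.53 and did not pass (limma adjusted p = 0.0503). It passed when wild-type array 2-1 (limma adjusted p = 0.0423) or 5-1 (0.0127) was left out, or knockout array 1-2 (0.0459), 2-3 (0.0361), 3-3 (0.0417) or 4-4 (0.0465). With a block for the first number of the sample label it passed too (limma adjusted p = 0.00686). The changes of the 3 dimmer probe sets were not distinguishable from that of the brightest (exact permutation, two-sided, p = 0.333 to 0.636).

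Dpep1 encodes renal dipeptidase, a zinc enzyme on a lipid anchor that splits dipeptides such as cysteinylglycine, the product that gamma-glutamyl transferase leaves from glutathione. Probe set 1419674_a_at had log2 signals of 9.59 to 9.98 in wild type (median 9.64) and 8.23 to 9.22 in knockout (median 8.85). No knockout array reached the wild-type range, although array 5-2 came nearest. The mean fell from 9.73 ± 0.15 (SD, n = 7) to 8.77 ± 0.28 (SD, n = 9), 1.96-fold (log2 change -0.97, SE 0.11, limma adjusted p = 2.98e-06).

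The second Dpep1 probe set, 1435943_at, moved less. It had log2 signals of 9.11 to 9.68 in wild type and 8.07 to 9.32 in knockout, with 1 knockout array, 5-2, inside the wild-type range, and was 1.54-fold lower (log2 change -0.63, limma adjusted p = 0.00391). Of 8 comparisons between the brightest and another probe set of the same gene, this was the 1 that passed: the change of 1419674_a_at was 0.34 deeper on the log2 scale (-0.34, exact permutation, two-sided, p = 0.000175, adjusted p = 0.0014). Where in the transcript these probes lie was not analysed here.

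Miox fell furthest of the 9. Its product, myo-inositol oxygenase, opens the inositol ring to give glucuronate and is found almost only in the kidney cortex. Log2 signals were 12.19 to 12.51 in wild type (median 12.29) and 10.14 to 11.54 in knockout (median 11.18), with no overlap and knockout arrays 2-3 (10.14), 1-2 (10.56) and 4-4 (10.68) at the bottom. The mean went from 12.30 ± 0.12 (SD, n = 7) to 11.02 ± 0.47 (SD, n = 9), a log2 change of -1.28 with a standard error of 0.16, or 41.2% of the wild-type level (95% interval of the fold 1.93 to 3.05, limma adjusted p = 9.74e-06). Miox lay furthest below its wild-type mean of all 9 genes on each of the 9 knockout arrays. All 8 comparisons of its change with that of another member passed (exact permutation, two-sided, adjusted over 36 pairs, p = 0.000629 to 0.0219).

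Gatm encodes the mitochondrial amidinotransferase that makes the creatine precursor guanidinoacetate from arginine and glycine. It had log2 signals of 10.86 to 11.22 in wild type (median 10.99) and 9.93 to 10.79 in knockout (median 10.38), so the groups came close without overlapping. The mean fell from 11.02 ± 0.12 (SD, n = 7) to 10.40 ± 0.27 (SD, n = 9), 1.53-fold (log2 change -0.62, SE 0.10, limma adjusted p = 0.000201).

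Napsa, Spp2 and Kap encode products rather than surface enzymes. Napsin A, from Napsa, is a lysosomal aspartic protease of proximal tubule and lung. Probe set 1423590_at had log2 signals of 11.68 to 11.94 in wild type (median 11.83) and 11.11 to 11.57 in knockout (median 11.34), with no overlap and the least scatter among knockout arrays of the 9 genes (SD 0.13). It was 1.40-fold lower (log2 change -0.49, SE 0.06, limma adjusted p = 4.6e-06). The dim second probe set, 1430744_at, was not tested in the fit and had log2 signals of 4.28 to 5.17 in wild type and 2.96 to 4.90 in knockout. Its means differed by -0.74 (exact permutation, two-sided, p = 0.0223). Napsa lies on the same chromosome as Aqp11 in the RefSeq gene order, with 365 protein-coding genes between them.

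Spp2 encodes secreted phosphoprotein 24, a circulating protein that is bound in bone. Probe set 1418916_a_at had log2 signals of 12.00 to 12.43 in wild type (median 12.21) and 10.80 to 11.56 in knockout (median 11.41). A clear gap separated the groups, and array 2-3 was the lowest. The mean fell from 12.21 ± 0.13 (SD, n = 7) to 11.30 ± 0.23 (SD, n = 9), 1.88-fold, and had the smallest adjusted p of the 9 genes (log2 change -0.91, SE 0.09, limma adjusted p = 4.29e-07). Probe set 1446777_at was near the floor of the scale, with 4 wild-type and 6 knockout arrays at it, and showed no detectable difference (log2 signals of 2.78 to 4.60 and 2.78 to 4.26, exact permutation, two-sided, p = 0.384).

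Kap encodes an abundant proximal tubule protein whose transcript responds to androgen in the adult kidney. Probe set 1415968_a_at had log2 signals of 12.73 to 13.12 in wild type (median 12.99) and 11.72 to 12.71 in knockout (median 12.18). The highest knockout array, 1-2 at 12.71, lay just under the lowest wild-type array, 2-2 at 12.73. The mean fell from 12.95 ± 0.14 (SD, n = 7) to 12.21 ± 0.31 (SD, n = 9), 1.67-fold (log2 change -0.74, SE 0.11, limma adjusted p = 8.4e-05).

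The second Kap probe set, 1415969_s_at, was 1.76-fold lower (log2 change -0.81, SE 0.16, limma adjusted p = 0.00136). Here knockout array 1-2, at 12.78, lay inside the wild-type range of 12.40 to 12.98, and the remaining 8 knockouts were at 12.29 or below. On the brighter arrays alone, which include 1-2, neither Kap probe set passed (log2 changes -0.59 and -0.55, limma adjusted p = 0.0697 and 0.171). Over only the dimmer arrays, 1415968_a_at was lower by 0.88 on the log2 scale (-0.88, limma adjusted p = 6.58e-05).

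**Figure D2:**
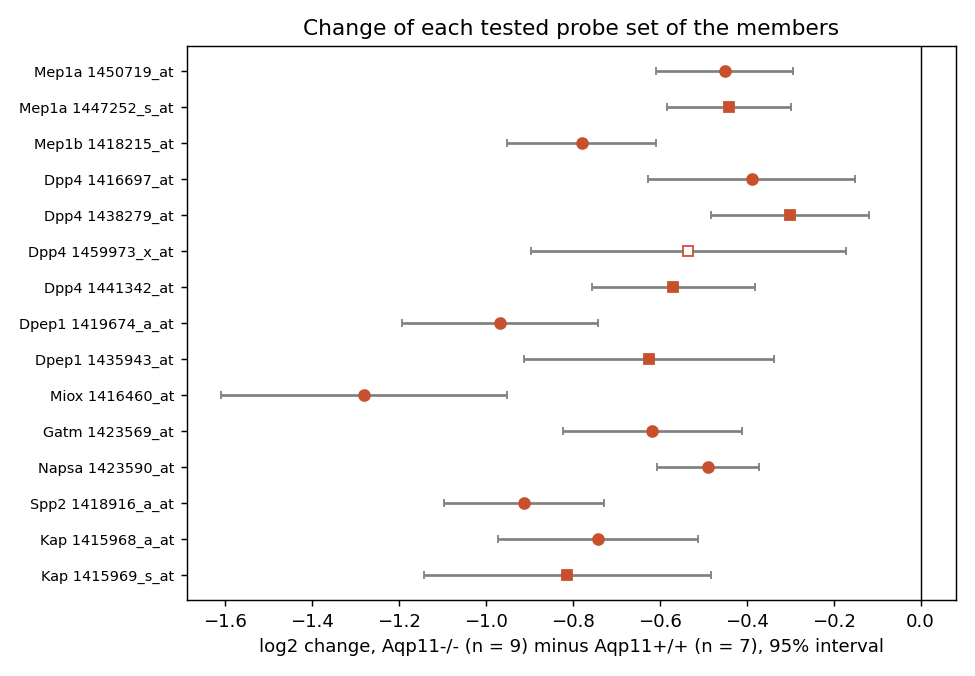
Log2 change (knockout minus wild type, horizontal axis) of the 15 tested probe sets, with 95% intervals over 9 and 7 arrays. Circles are the brightest probe set of a gene and squares the others, and filled symbols passed an adjusted p of 0.05. All 15 lie left of 0, from -1.28 for Miox to -0.30 for Dpp4 1438279_at, and 1 (Dpp4 1459973_x_at) is open.

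By their brightest probe sets, the 9 genes did not share one log2 change. Of 36 pairs, 21 differed in their change after adjustment (exact permutation of genotype labels, two-sided, at 0.05). The brightest and the other probe set of Dpep1 also differed, by 0.34. Whether differences of this size between members lie in the genes or in their probe sets was not tested. Dpep1 fell more than Mep1b (by 0.19 on the log2 scale, adjusted p = 0.0316), Gatm (by 0.35, adjusted p = 0.00605) and Napsa (by 0.48, adjusted p = 0.00283), all by exact permutation and by its brightest probe set. By its other probe set the log2 change of Dpep1 was -0.63, beside -0.78 for Mep1b and -0.62 for Gatm, so the order depends on the probe set. Spp2 fell more than Napsa (by 0.42, exact permutation, adjusted p = 0.000629). For 15 pairs no difference was detected. Among them were Dpep1 and Spp2 (difference 0.05 with Dpep1 the lower, exact permutation, adjusted p = 0.624) and Mep1b and Kap (difference 0.04 with Mep1b the lower, exact permutation, adjusted p = 0.798).

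Knockout kidneys also differed from one another. The median deviation of the 9 genes from their wild-type means was -1.09 on array 2-3, -0.94 on 2-4, -0.84 on both 1-2 and 4-4, and between -0.70 and -0.48 on the other 5. Array 2-3 was the lowest knockout array for all 9 genes by their brightest probe set. Array 1-2 had an uneven profile, with Miox at -1.75 and Kap at -0.24. Dpp4 was the member nearest to its wild-type mean on 6 of the 9 knockout arrays.

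**Figure D3:**
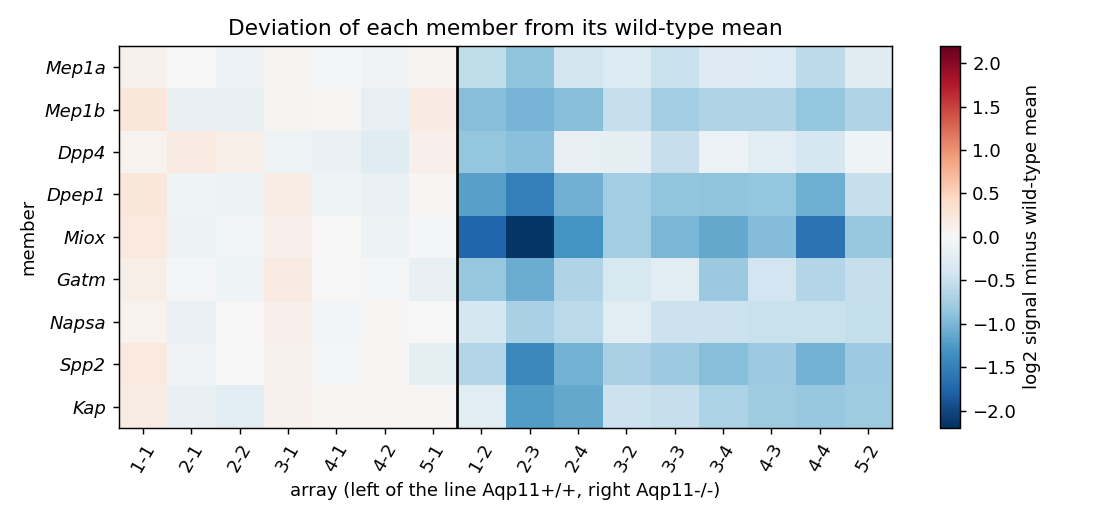
Log2 signal of each of the 9 genes (rows) minus its wild-type mean, on 7 wild-type arrays (left of the line) and 9 knockout arrays (right), with the colour scale in log2 units. Knockout columns are blue in every row, deepest for Miox on array 2-3 at -2.16, while the Dpp4 row is pale on 6 knockout arrays.

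After the mean of each genotype was subtracted, many members still varied together over the 16 arrays, though not all. This is given as a description, since the members share each array's RNA and scaling. Pearson's r was 0.92 between Dpep1 and Miox, 0.89 between Mep1a and Miox and 0.89 between Mep1a and Dpep1 (Spearman's rho 0.92, 0.82 and 0.86). Spp2 and Kap (0.81) and Napsa and Kap (0.80) formed another close group (rho 0.75 and 0.83). Dpp4 stood at 0.79 with Mep1a, but at 0.21 with Spp2, 0.14 with Napsa and -0.10 with Kap (rho 0.74, 0.003, -0.11 and -0.21). Most members scattered more among knockout than among wild-type arrays, and r within 1 genotype was not analysed. The median of Pearson's r over 36 pairs was 0.60, and 14 pairs were above 0.7.

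Measured the same way over 16 arrays, the genes most like Mep1a were Slc17a3 (r = 0.93), a urate and anion transporter gene, and Slc51b (r = 0.93), a subunit of a bile acid exporter. Mep1b was closest to Arsb (0.91), a lysosomal sulfatase, and Acy1 (0.90), an aminoacylase. Dpp4 was closest to Uqcrh (0.96) of respiratory complex III and Man1a2 (0.96), a Golgi mannosidase. Dpep1 was closest to Tmem174 (0.94) and Grhpr (0.94), a glyoxylate reductase, and Miox to Galnt11 (0.95), a glycosyltransferase, and Cmbl (0.94), a hydrolase. The remaining pairs were Uqcrb (0.85) and Acadm (0.83) for Gatm and Col4a4 (0.83) and Slc13a1 (0.81) for Napsa. They were Hgd (0.93) and Pcx (0.92) for Spp2, and Fbp1 (0.89) and Tmigd1 (0.87) for Kap. These 18 genes were picked for the highest r with each member among many genes, so each r is a maximum. Of the 18, 11 were lower in knockout past the threshold and 0 higher (limma), where the shares over all 12499 genes were 7.3% lower and 8.44% higher. The 7 that did not pass were Slc51b, Arsb, Acy1, Uqcrh, Man1a2, Uqcrb and Slc13a1 (limma adjusted p = 0.0642 to 0.364).

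Other enzymes of the brush border were mostly lower as well. Of 14 tested genes, 9 fell and 1 rose, with a median log2 change of -0.48. For this and each list below, the shares over all 12499 genes were 7.3% lower and 8.44% higher. The clearest falls were those of Xpnpep2, a membrane aminopeptidase for proline bonds (7.84 ± 0.16 to 7.00 ± 0.23, 1.80-fold, limma adjusted p = 9.48e-06), and Alpl, alkaline phosphatase (8.62 ± 0.32 to 7.59 ± 0.35, 2.05-fold, limma adjusted p = 6.51e-05). Car14, a membrane carbonic anhydrase, fell 2.18-fold and Anpep, aminopeptidase N, 1.31-fold (limma adjusted p = 0.000206 and 0.000328). Nt5e, which makes adenosine at the cell surface, was the 1 that rose (1.54-fold, limma adjusted p = 0.00155) and is named outside the rule, after its value was seen. So are Enpep (log2 change -0.07), Mme (-0.20), Car4 (-0.16) and Cpm (-0.05), the 4 that did not pass (limma adjusted p = 0.209 to 0.812), and Folh1, whose fall was lost in 12 of 16 fits that left out 1 array.

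Genes that build and organise the microvilli fell in part. Of 18 tested genes, 7 fell, 0 rose and the median log2 change was -0.25. Cdhr2 and Cdhr5, the protocadherins that link microvillus tips, fell 1.75-fold and 1.77-fold (limma adjusted p = 9.95e-06 and 0.000502). Their scaffold gene Ush1c fell 1.42-fold (limma adjusted p = 0.00335) and Vil1, the actin bundler villin, 1.24-fold (limma adjusted p = 0.00623). Ezr, the membrane linker ezrin, had a log2 change of 0.00 and Prom1, a protein of microvillus membranes, 0.06, and neither passed (limma adjusted p = 0.989 and 0.553). Anks4b and Slc9a3r1 were called lower too, but each call was lost in 10 of 16 fits that left out 1 array. These last 4 genes are also named outside the rule. Without wild-type arrays 2-1 and 2-2 together, 5 of the 18 fell.

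**Figure D4:**
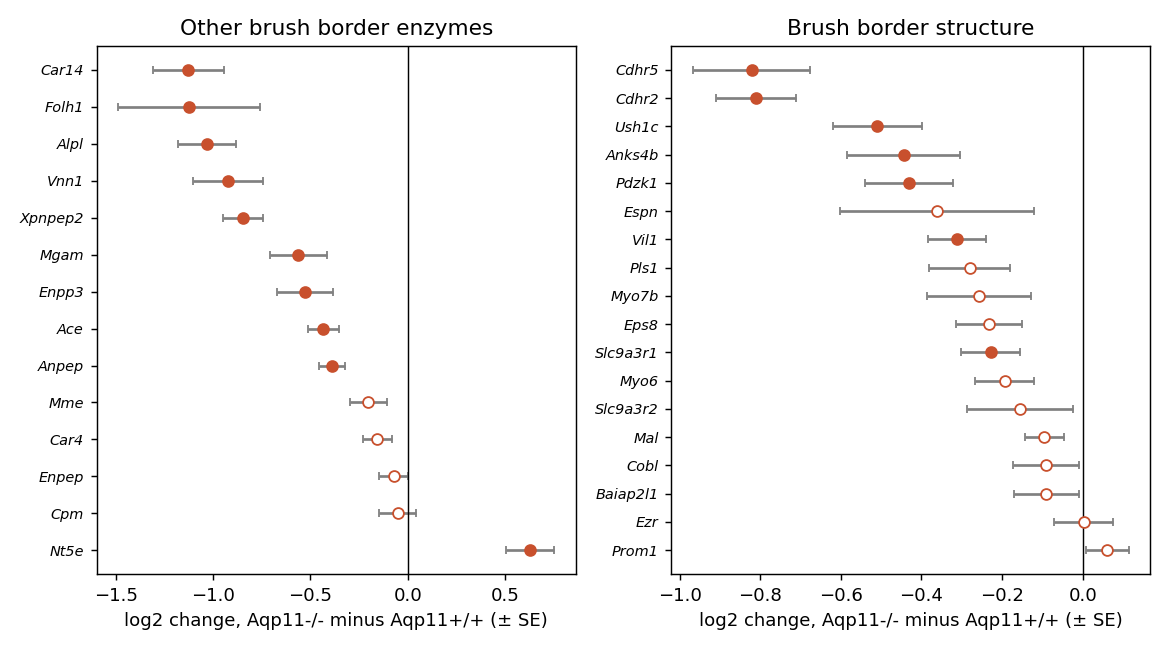
Log2 change (knockout minus wild type, horizontal axis) with its standard error for 14 other brush border enzymes (left) and 18 brush border structure genes (right), each by its brightest probe set. Filled symbols passed an adjusted p of 0.05: 9 enzymes lie to the left and Nt5e to the right, and 7 structure genes lie to the left.

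In the gamma-glutamyl cycle, where Dpep1 acts on the product of the transferase, 2 of 10 tested genes fell and 1 rose, with a median log2 change of -0.16. Over all genes, 7.3% fell and 8.44% rose. Gclm, a subunit of the first enzyme of glutathione synthesis, fell 1.20-fold and Gss, glutathione synthetase, 1.19-fold (limma adjusted p = 0.0152 and 0.0268), and Gss did not pass when array 1-1 or 3-1 (wild type) or 2-4 or 4-4 (knockout) was left out. Neither fall was called with median centring, with the deposited scaling, on brighter or dimmer arrays alone or in either sex alone. Chac1, which degrades glutathione in the cytosol, rose from 4.16 ± 0.53 (SD, n = 7) to 6.19 ± 0.17 (SD, n = 9), 4.08-fold (limma adjusted p = 2.04e-07). Its wild-type signal was dim, and with the filter at the 60th percentile 9 genes of this list were tested and 0 rose. Of 7 tested relatives of Ggt1, Dpep1 and Dpp4, Dpp7, a lysosomal dipeptidyl peptidase, fell 1.28-fold (limma adjusted p = 0.0324) and the other 6 did not pass. The Dpp7 call was lost in 6 of 16 fits that left out 1 array.

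Around Miox and Gatm, 3 of 12 tested genes of creatine, inositol and glucuronate metabolism fell and none rose, with a median of -0.17. These 3 were the pentose pathway genes Dcxr (1.51-fold), Cryl1 (1.48-fold) and Xylb (1.24-fold), which handle carbon that leaves the Miox reaction (limma adjusted p = 0.000338, 0.000457 and 0.0435). The Xylb call was lost in 10 of 16 fits that left out 1 array, and all 3 calls were lost with the deposited scaling. The other 9 of the 12 did not pass. Among them, Gamt, which completes creatine synthesis after Gatm, had a log2 change of -0.03 (limma adjusted p = 0.929). Slc6a8, the creatine transporter, had -0.19 (limma adjusted p = 0.421) and Akr1a1 -0.04 (limma adjusted p = 0.744). Gamt, Slc6a8 and Akr1a1 are named after their values were seen.

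Among 4 tested aspartic proteases related to Napsa, the direction was the opposite of that of Napsa for the 2 that passed. Ctsd, lysosomal cathepsin D, rose 1.28-fold (limma adjusted p = 0.000189) and Bace1, beta-secretase, 1.16-fold (limma adjusted p = 0.0321), the latter lost in 7 of 16 fits that left out 1 array and both lost with the deposited scaling. Among 10 tested genes that respond to androgen in kidney, as Kap does, 2 fell and 2 rose, with a median of -0.03. The shares over all genes were 7.3% lower and 8.44% higher. Slc7a13, an amino acid transporter gene, fell 2.93-fold (limma adjusted p = 1.23e-07) and Slc7a12 1.49-fold (0.0314), while Gusb, beta-glucuronidase, rose 1.28-fold (0.0043) and Odc1, ornithine decarboxylase, 1.17-fold (0.0345), all limma adjusted p. The calls of Slc7a12 and Odc1 were each lost in 5 of 16 fits that left out 1 array, and with the deposited scaling Slc7a13 alone passed.

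Of 5 tested transcription factor and coactivator genes of the proximal tubule, 4 fell and none rose. Hnf4a, a nuclear receptor that directs proximal tubule maturation, fell 1.41-fold (log2 change -0.49, limma adjusted p = 4.67e-06). Ppargc1a, the coactivator of mitochondrial genes, had a log2 change of -0.53, Ppara, the receptor for fatty acids, -1.03, and its partner in energy metabolism Esrra -0.44 (limma adjusted p = 0.000103, 0.000819 and 0.0265). The Esrra call was lost when array 1-1, 3-1 or 4-1 (wild type) or 2-4 (knockout) was left out, and with the deposited scaling only Ppara passed.

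No difference between the sexes passed the threshold for a member. With genotype in the fit, the 15 member probe sets had a limma adjusted p of 0.999 for male against female, where 21 of 27377 probe sets passed (0.0767%). For Kap 1415968_a_at, wild-type females had 12.87 ± 0.13 (SD, n = 4) and males 13.06 ± 0.06 (SD, n = 3). No probe set on the array passed for a different genotype effect in the 2 sexes (0 of 27377, or 0%, by limma, and 2790 at an unadjusted p under 0.05). The member nearest to it was Kap 1415969_s_at, with a log2 change of -0.49 in females and -1.15 in males (difference -0.66, limma adjusted p = 0.488).

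Markers of cell types moved with these genes, and their part in the falls was not tested. Of 11 proximal tubule markers, 10 were lower. Slc5a2, Pck1, Slc13a3 and Aqp1 had the smallest p (log2 changes -2.07, -0.99, -0.62 and -0.71, limma adjusted p = 2.34e-06 to 1.02e-05). The mean log2 signal of these 11 was 10.87 to 11.13 in wild type and 9.70 to 10.45 in knockout, beside 11.37 to 11.61 and 10.23 to 10.97 for the 9 members. Array 2-3 was the lowest for both sets. Of 7 markers of injured tubule, 5 rose and the list's mean went from 6.45 to 7.20 up to 8.57 to 9.05, with the smallest p for Havcr1, Lcn2, Krt20 and Clu (log2 changes 5.26, 2.18, 3.28 and 0.76).

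All 13 macrophage markers rose, with a list mean of 6.60 to 7.47 in wild type and 8.17 to 8.91 in knockout. Wild-type arrays 2-1 and 2-2, at 7.47 and 7.42, stood above the other wild-type arrays, which ran up to 6.75. Without this pair, the log2 changes were -1.32 for Miox, -1.01 for Dpep1, -0.93 for Spp2, -0.85 for Mep1b, -0.82 for Kap, -0.65 for Gatm, -0.52 for Napsa and -0.47 for Mep1a, all past the threshold (limma adjusted p = 3.82e-06 to 0.00121). Dpp4 alone of the 9 then failed to pass (log2 change -0.32, limma adjusted p = 0.137).

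Lymphocyte markers, which bear on Dpp4, were too dim to test. The mean of the 4 named ones was 2.88 to 3.38 in wild type and 2.96 to 3.73 in knockout, close to the floor of 2.78 (difference 0.12, exact permutation, two-sided, p = 0.297). With the floor at the 10th percentile the difference was 0.53 (exact permutation, two-sided, p = 0.03). Among other cell types, the mean of 7 markers of thick limb and distal tubule differed by -0.43 in log2 between knockout and wild type (exact permutation p = 8.74e-05, the smallest these groups can give). Of its 6 tested markers 2 fell, Egf (-1.91) and Slc12a3 (-0.37), and the median over the 6 was -0.02. The mean of 5 endothelial markers was lower by 0.22 (-0.22, exact permutation p = 0.000874) and that of 4 podocyte markers by 0.15 (-0.15, exact permutation p = 0.0035). That of 6 fibroblast markers was higher by 0.15 (exact permutation p = 0.00035). By gene, 2 of the 5 endothelial markers fell (Pecam1 and Emcn) and 1 of the 4 podocyte markers (Nphs1). Of the 6 fibroblast markers, 2 rose (Col1a1 and Col1a2). The rest of these lists did not pass, and the median log2 changes were -0.19, -0.12 and 0.16 in turn. With the deposited scaling the endothelial, podocyte and fibroblast means did not pass (exact permutation p = 0.206, 0.405 and 0.337). The podocyte difference was -0.08 in males alone (exact permutation p = 0.411). Collecting duct markers went both ways: Aqp2 rose (log2 change 0.90) and Slc4a1 (-0.88) and Avpr2 (-0.48) fell (limma adjusted p = 0.000102, 6.32e-06 and 0.0151), with a difference of -0.03 in the mean of all 5 (exact permutation p = 0.676). Liver markers were near the floor except Apoa2, which fell (log2 change -1.37, limma adjusted p = 1.2e-06). The mean of the liver list differed by -0.33 (exact permutation p = 0.0143, and 0.109 with the floor at the 10th percentile). Only 1 of 4 adrenal and 1 of 3 nephron progenitor markers were bright enough to test. The means of these lists showed no detectable difference (exact permutation p = 0.868 and 0.716), and at such dim signals a change could be missed. All these permutation tests were two-sided.

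The arrays bore out their genotype labels. The brightest Aqp11 probe set, 1429254_at, had a log2 signal of 7.72 to 8.11 in wild type and 2.78 to 3.69 in knockout, where 7 of 9 arrays lay at the floor. The dimmer 1447606_x_at overlapped (4.46 to 5.89 and 2.78 to 5.25), and 1455846_at did not (3.55 to 4.85 and 2.78 to 3.06). The trimmed mean signal of an array ran from 111 to 236 before normalization, and 4 arrays of each genotype were among the 8 brighter ones. Pearson's r between arrays was 0.929 to 0.987 and no pair held identical values. The number of animals limits the precision.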

How the data were processed

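Whole-kidney RNA of 16 pups was hybridised to 16 arrays. The deposited signal intensity of each probe set, on a linear scale, was produced by the authors with GCOS 1.3 per the submitters' processing notes. Scaling between arrays and the genome build are not given in the sources used here. Intensities were quantile normalized because trimmed means differed 2.12-fold. Signals below the 20th percentile over all arrays (signal 6.89, log2 2.78) were raised to it before log2. This floor makes changes of dim genes look smaller, and quantile normalization would hide a change in total mRNA.

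The platform annotation given with the data names 1 gene for 34958 probe sets and several for 932, and 9211 of 45101 probe sets are not listed. The 64 control probe sets were left out. Probe sets above the 40th percentile of their array on at least 7 of 16 arrays were tested, 27377 in all. Genotype was the only term in limma 3.58.1 under R 4.3.3 (lmFit, eBayes with a variance trend), with Benjamini-Hochberg adjustment over all probe sets tested and a threshold of 0.05. Differences between members and marker means used exact permutation of the genotype labels over 11440 labelings, with a smallest p of 8.74e-05. Lists were counted by the brightest probe set of each gene. The fit was tested on simulated data. Figures were drawn with matplotlib.

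The members and lists were chosen with earlier results of these data known. Named genes are all members, up to 4 genes past the threshold with the smallest p in each list (2 where none passed), and the 2 genes most like each member. Alternatives covered normalization, floor, filter, probe set combination, sex, first sample number, variance model, brightness and each array left out. Omission of wild-type arrays 2-1 and 2-2 together was chosen after seeing the data.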

Additional observations from a re-analysis of the deposited data

Results flagged for a closer look

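One value stood far from the rest of its group. For Mep1a (1450719_at), knockout array 2-3 had a log2 signal of 10.94, while the next lowest knockout array had 11.26 and the highest 11.57, a gap of 0.503 of the whole range. In all, 34 groups (17 probe sets in 2 genotypes) were screened, and chance marks about 1 in 20. Array 2-3 was also the lowest knockout array for the other members by their brightest probe set. Without array 2-3 the log2 change of this probe set was -0.40 (limma adjusted p = 9.14e-05).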

How the results depend on the processing

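No member changed direction under any alternative. Mep1b, Dpep1, Miox and Spp2 (brightest probe sets) stayed past the threshold in all 37, Napsa in 36, and Mep1a, Gatm and Kap in 35 each, while Dpp4 stayed in 25. All probe sets past the threshold numbered 3195 (1700 higher, 1495 lower). They numbered 573 with the deposited scaling (375 higher, 198 lower), 1731 on the brighter and 1461 on the dimmer arrays alone, and 1838 in males and 767 in females alone. Of the 9 member genes, 5 were lower with the deposited scaling and 5 in females alone, as were 6 and 6 of the 14 member probe sets. Beside these, 198 of all 27377 probe sets tested were lower with the deposited scaling, and 767 of 27377 passed in either direction in females alone. The 9 other brush border enzymes that fell became 3 with the deposited scaling, 4 on brighter arrays, 5 on dimmer arrays and 3 in females. The 7 structure genes became 2 with the deposited scaling, 4 on brighter arrays, 2 on dimmer arrays, 4 in males and 4 in females. Of the 21 differing pairs of members, 0 passed by exact permutation on brighter arrays, in males or in females, where the smallest p that these designs can give is 0.0286, 0.0179 and 0.0286, and 17, 17 and 12 pairs had an unadjusted p under 0.05. The 1 differing pair of probe sets became 2 with the floor at the 30th percentile and 0 by exact permutation on brighter arrays, on dimmer arrays, in males and in females (1 each at an unadjusted p under 0.05). In these subsets the smallest possible p is 0.0286, 0.0179, 0.0179 and 0.0286 in turn, so 1 pair of 8 could not pass after adjustment.

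The first sample number takes 5 values and the pups came from 5 breeding pairs, but the labels do not say what the number marks. Deviations of arrays that share a number correlated at -0.01 to 0.32 between genotypes, and 6 of 16 arrays matched their own number best. With the first sample number as a replicate block, 3919 probe sets passed (3779 with sex added), with 9 member genes and 15 member probe sets lower. The exact permutation tests shuffled genotype labels freely over the arrays and were not run within these numbers. Array brightness and sex each halve the number of animals, and the cause of the lost calls was not tested.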
